A study of Mus musculus with 6 samples.

Results

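Plagl1, Igf2 and Peg10 are imprinted genes, used mainly from 1 parental copy, which for all of them is the paternal one. They were taken by name from the deposited tables and are 3 of the 2031 genes listed there. Transcript levels were measured by poly-A RNA sequencing in cells differentiated from J1 embryonic stem cells, a mouse line of the 129S4/SvJae strain, which were induced towards heart muscle as embryoid bodies (cell aggregates) formed in hanging drops. The control group, NC, was kept in a conventional incubator (3 libraries). The exposed group, MF, was kept in a static magnetic field incubator (3 libraries). All libraries come from the 1 line, the labels name no genetic change in either group, and the sources used here do not state the strength of the field, how long it was applied or when the cells were collected. The series calls the libraries biological triplicates.

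Imprinted genes are marked by DNA methylation that is laid down differently in sperm and egg, and many of those used from the paternal copy favour growth of the fetus and placenta. Plagl1 (also called Zac1) encodes a zinc finger transcription factor that is known to act on other imprinted genes, Igf2 and H19 among them. Igf2 encodes insulin-like growth factor 2, a secreted growth factor of the embryo, whose signal runs through the receptors Igf1r and Insr and whose protein is removed by Igf2r. Peg10 derives from the gag and pol genes of an ancient retrotransposon and is needed for the placenta. The libraries were not split by parental copy, so every value below is the sum of both copies.

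Every deposited gene, these 3 included, had been selected by the authors on this comparison: in the authors' deposited table no adjusted p exceeds 0.0499 and no log2 fold change is nearer to 0 than 1.001. The authors' deposited table gives log2 fold changes of 4.40 for Plagl1, 2.27 for Igf2 and 1.42 for Peg10, with adjusted p-values of 2.69e-09, 0.00034 and 0.0019. Since these values chose the genes, the differences between the groups are given below as a description and without a test. By that table, 63.2% of the deposited genes are higher in MF. Genes outside the selection were not analysed here.

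The promoters of Plagl1 and Igf2 are shown because the sites in them that can carry DNA methylation, the CpG dinucleotides, differ in number. No methylation values were used here, so the counts do not show which sites carry an imprinting mark. RefSeq (build GRCm38.p6) has a promoter entry for 2 of the 3 genes, with 1 start site for Plagl1 and 4 for Igf2. The sequences run 5′ to 3′ on the strand of the gene and end at the start site or at the nearest annotated exon upstream of it, with each CpG in capitals.
Plagl1, chr10:13090582-13090690, plus strand: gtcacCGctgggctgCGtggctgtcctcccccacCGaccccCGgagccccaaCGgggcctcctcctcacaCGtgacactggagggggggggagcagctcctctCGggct
Igf2 first start site, chr7:142666817-142667066, minus strand: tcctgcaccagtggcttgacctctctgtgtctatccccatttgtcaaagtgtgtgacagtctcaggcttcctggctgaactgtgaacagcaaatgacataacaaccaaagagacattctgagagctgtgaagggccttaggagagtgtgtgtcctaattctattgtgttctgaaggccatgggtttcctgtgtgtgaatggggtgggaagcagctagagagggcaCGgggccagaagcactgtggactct
Igf2 last start site, chr7:142657497-142657746, minus strand: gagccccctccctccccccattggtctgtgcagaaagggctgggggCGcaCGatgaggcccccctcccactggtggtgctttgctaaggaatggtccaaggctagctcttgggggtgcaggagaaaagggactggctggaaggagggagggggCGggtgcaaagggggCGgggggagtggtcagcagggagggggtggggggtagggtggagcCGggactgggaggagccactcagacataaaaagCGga
Over the 250 bases upstream of its start site, Plagl1 has 19 CpG dinucleotides, more than 80.3% of the 32817 windows of that length upstream of RefSeq start sites have, where the median is 6. The 4 Igf2 windows have 1, 10, 22 and 6 in transcript order, so the first holds the fewest and the third the most. All 250 bases of the third window, and 141 of the 250 upstream of Plagl1, lie in annotated exons of the same gene. The Plagl1 start site used here lies inside the span of the deposited gene, which begins at base 13060504. The noncoding RNA Hymai starts at base 13090845 of chromosome 10, close to the Plagl1 start at base 13090832, and its window holds 19 as well. The letters GGGGCCCC, the core of a site reported for the Plagl1 protein, which read the same on both strands, are in 0.884% of all windows and in none of the Plagl1 and Igf2 windows. The GC box GGGCGG, searched on both strands, is in 32.7% of all windows, with 2 matches upstream of Plagl1, 1 upstream of the third Igf2 start site and 2 upstream of the last. These matches are descriptions of the letters in these windows.

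Levels are given in FPKM, which here are counts scaled by the authors' size factor of the library and by the length of the gene, so that genes can be compared. Plagl1 (ENSMUSG00000019817, mm10 chromosome 10, 13060504 to 13131694, plus strand) stood at 4.27, 2.12 and 5.41 FPKM in NC replicates 1, 2 and 3, from 523, 267 and 631 counts. In MF replicates 1, 2 and 3 it stood at 110.6, 13.7 and 124.5 FPKM, from 16589, 1795 and 15848 counts. MF replicates 1 and 3 were far above every other library, and MF replicate 2 lay between them and the controls. The groups did not overlap, and the lowest MF library was 2.53-fold above the highest NC library. The group means were 3.93 ± 1.67 FPKM in NC and 82.9 ± 60.4 FPKM in MF (SD, n = 3), a ratio of 21.1 (log2 fold change 4.40, SE 0.81). With the libraries scaled on the deposited genes instead, the log2 fold change of Plagl1 was 3.38 (TMM) or 3.24 (median-of-ratios).

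Igf2 (ENSMUSG00000048583, mm10 chromosome 7, 142650766 to 142666816, minus strand) stood at 8.31, 3.43 and 8.81 FPKM in NC replicates 1, 2 and 3, from 745, 316 and 753 counts. Its MF values were 51.9, 13.4 and 33.9 FPKM, from 5695, 1286 and 3157 counts. The groups did not overlap, but the lowest MF library, again replicate 2, was only 1.52-fold above the highest NC library. The means were 6.85 ± 2.98 FPKM in NC and 33.1 ± 19.3 FPKM in MF (SD, n = 3), a ratio of 4.82 (log2 fold change 2.27, SE 0.57), and under the same other scalings the log2 fold change was 1.28 or 1.17. In GENCODE M21, 62.8% of the exonic bases of Igf2 also belong to Gm49394, a gene model on the same strand that was not analysed here, and 1.71% to the antisense gene Igf2os. The sources used here do not say how reads in shared bases were counted, so the level of Igf2 is less certain than those of the other two genes.

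Peg10 (ENSMUSG00000092035, mm10 chromosome 6, 4747306 to 4760517, plus strand) was by far the most abundant of the 3 genes. It stood at 184.3, 134.3 and 197.1 FPKM in NC replicates 1, 2 and 3, from 19239, 14424 and 19617 counts, and at 541.7, 248.2 and 588.6 FPKM in MF replicates 1, 2 and 3, from 69254, 27805 and 63866 counts. The groups did not overlap, and the lowest MF library, replicate 2, was 1.26-fold above the highest NC library, replicate 3. The means were 171.9 ± 33.2 FPKM in NC and 459.5 ± 184.5 FPKM in MF (SD, n = 3), a ratio of 2.67 (log2 fold change 1.42, SE 0.49). Under TMM or median-of-ratios scaling the log2 fold change of Peg10 was only 0.41 or 0.30.

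**Figure D1:**
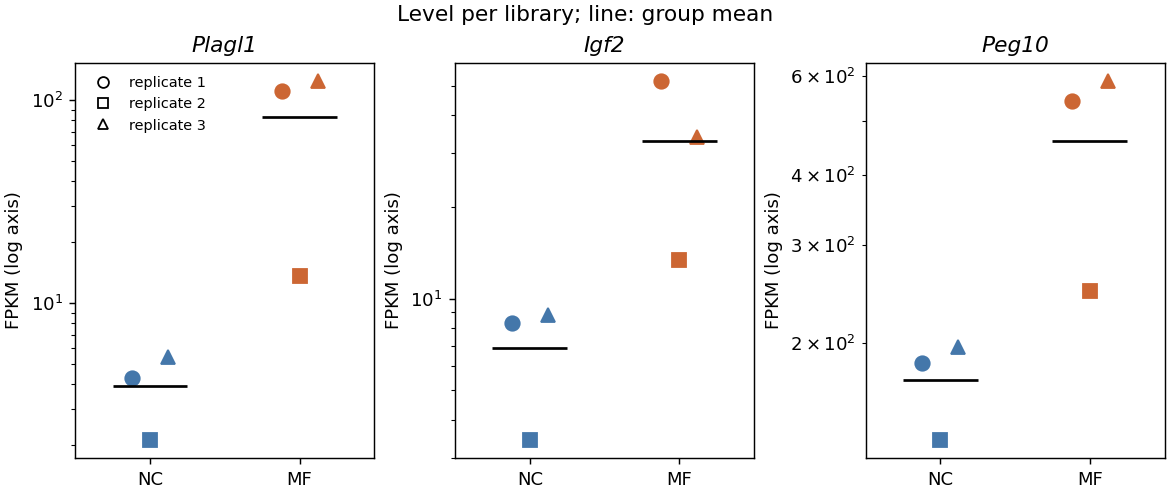
FPKM of Plagl1, Igf2 and Peg10 in each of the 3 NC and 3 MF libraries on log axes, with the group mean as a line. MF replicates 1 and 3 are the highest libraries for all 3 genes, and replicate 2 is the lowest of its group in both NC and MF.

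By mean level over the 6 libraries, Peg10 ranked 7, Plagl1 82 and Igf2 184 among 1651 genes, those with a name and a mean over all libraries of 0.5 FPKM or more. The order changed with the group. In NC the levels of Plagl1 and Igf2 did not differ beyond their spread, and Igf2 was the higher of the pair in each NC library. In MF the means of the pair again lay within their spread: in replicates 1 and 3 Plagl1 was the higher, while in MF replicate 2 both stood near the same level, at 13.7 and 13.4 FPKM. Among the 1052 of these genes that were higher in MF, Plagl1 ranked 40 by fold change, Igf2 273 and Peg10 654.

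In MF the spread between libraries was largest for Plagl1, while in NC it was slightly larger for Igf2. The Plagl1 level in its highest MF library was 9.11-fold above its lowest, against 3.88-fold for Igf2 and 2.37-fold for Peg10, while in NC the ratios were 2.55, 2.57 and 1.47. On the log2(FPKM + 0.5) scale the SD of Plagl1 was 0.61 in NC and 1.77 in MF, and 99.5% of the 1651 genes had a smaller SD in MF. Igf2 had SDs of 0.70 in NC and 0.98 in MF, the latter above those of 90.4% of genes. Peg10 had the smallest SDs of the 3, 0.29 in NC, below the median of the 1651 genes (0.39), and 0.69 in MF, above the median of 0.45. All 1651 genes were selected on this comparison, so these shares do not rank the 3 among genes in general.

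Most of this spread was the distance of replicate 2 from the other libraries of its group. Without MF replicate 2 the MF SD dropped to 0.12 for Plagl1, 0.43 for Igf2 and 0.0846 for Peg10, and without NC replicate 2 the NC SD dropped to 0.22, 0.0561 and 0.0682. MF replicate 2 had moved 36.5% of the way from the NC mean to the mean of MF replicates 1 and 3 for Plagl1, 38.7% for Igf2 and 31.6% for Peg10, on the log2 scale. For the 1052 genes higher in MF, the median was 55.7% and the quartiles 38.6% and 77.3%. The low position of these libraries was shared by most of the genes higher in MF. Among those 1052 genes the MF libraries had their minimum in replicate 2 for 82.8%, the NC libraries for 72.1%, and both did for 59.9%.

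**Figure D2:**
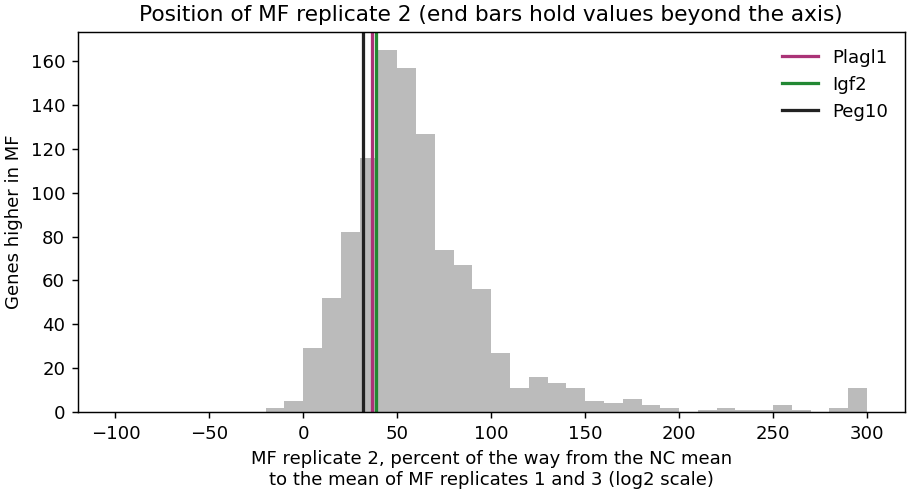
Histogram of the position of MF replicate 2 for the 1052 genes higher in MF, in percent of the log2 distance from the NC mean to the mean of MF replicates 1 and 3. The vertical lines mark Peg10 at 31.6%, Plagl1 at 36.5% and Igf2 at 38.7%, all below the median of 55.7%.

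The other imprinted genes in the deposited table were mostly higher in MF too. Of 80 imprinted genes on a list, 21 were deposited, 20 higher and 1 lower in MF, beside 63.2% higher over the whole deposited table. Apart from Plagl1, Igf2 and Peg10, 18 were deposited and 16 were among the 1651 tested genes. In the quasi-likelihood test of edgeR, adjusted by Benjamini-Hochberg over the 1651 genes, 14 of these 16 rose and 1 fell in MF, beside 62.1% of all tested genes that rose and 35.4% that fell. Of all calls 63.7% were higher in MF. When the libraries were scaled on the deposited genes instead, the median gene shifted by -0.98 (TMM) or -1.05 (DESeq2) on the log2 scale and 23.2% or 30.5% of calls were higher, while 15 of the 16 imprinted genes stayed above 0 under both and 1 and 4 rose. The median log2 fold change of the 16 was 1.71, against 1.22 over all tested genes. The groups did not overlap for 14 of the 16, and for 92.5% of all tested genes. Since every deposited gene was selected on this comparison, these counts describe the list and do not set it apart.

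The count of imprinted genes called depended on single libraries. Of the 16, the number that rose was 0 without MF replicate 3 (8 of the 16 had an unadjusted p under 0.05 in edgeR, the one tool run without that library), 4 without MF replicate 1 and 4 without NC replicate 1. It was 7 without NC replicate 2, 12 without NC replicate 3, and 15 without MF replicate 2 or without both replicate 2 libraries. The direction of each of the 16 was the same in all of these fits.

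Paternally expressed genes other than the 3 included Peg3 and Dio3. Peg3, a zinc finger gene tied to fetal growth and maternal behaviour, stood at 30.6, 19.8 and 48.4 FPKM in NC and at 187.4, 63.7 and 202.6 FPKM in MF, and rose 4.59-fold (adjusted p = 0.0192, edgeR). Its groups did not overlap, and replicate 2 was again the lowest in each. Usp29, which starts beside Peg3 on the other strand, rose 4.45-fold from 1.07 ± 0.55 to 4.78 ± 2.45 FPKM (SD, n = 3). Dio3, the enzyme that inactivates thyroid hormone, rose 5.35-fold from 2.64 ± 1.81 to 14.1 ± 7.13 FPKM. Sfmbt2, a Polycomb-related gene needed in the placenta, rose 2.35-fold, and Airn, the noncoding RNA that silences Igf2r, rose 4.06-fold. The edgeR calls of Sfmbt2 and Airn were lost without NC replicate 1, MF replicate 1 or MF replicate 3. Sfmbt2 was also lost without NC replicate 3 and Airn without NC replicate 2.

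Snrpn, which encodes a spliceosome protein of the Prader-Willi region, was the single deposited imprinted gene that fell. It stood at 103.8, 41.9 and 81.1 FPKM in NC and at 26.5, 48.5 and 29.0 FPKM in MF, a log2 fold change of -1.13 (SE 0.45, adjusted p = 0.0378, edgeR). Its groups overlapped, because MF replicate 2 lay above NC replicate 2. The call was lost without NC replicate 1 (adjusted p = 0.158), NC replicate 3 (0.0873), MF replicate 1 (0.119) or MF replicate 3 (0.123).

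Maternally expressed genes were higher in MF too, as 7 of the 7 deposited were, against 10 of 11 paternally expressed ones and 63.2% of all deposited genes, each of them selected on this comparison. The 10 include Plagl1, Igf2 and Peg10, which were chosen with this difference known. The 7 include Kcnk9, which lies below the filter on low values. Cdkn1c, an inhibitor of the cell cycle that restrains growth, rose 2.73-fold from 116.1 ± 58.3 to 316.4 ± 112.0 FPKM (SD, n = 3), with an edgeR adjusted p of 0.0306. That call was lost in edgeR without MF replicate 1 (adjusted p = 0.0967), MF replicate 3 (0.0903), NC replicate 2 (0.0662) or NC replicate 1 (0.0624). Igf2r, the receptor that removes Igf2, stood at 14.2, 20.8 and 18.0 FPKM in NC and at 106.5, 24.3 and 76.8 FPKM in MF, and rose 3.92-fold. It overlaps Airn on the opposite strand, so reads of the pair may be split between them. Slc22a18 and Osbpl5 rose 2.28-fold and 2.24-fold, and Asb4 4.07-fold with overlapping groups. The edgeR calls of Igf2r, Slc22a18, Osbpl5 and Asb4 were also lost without NC replicate 1, MF replicate 1 or MF replicate 3. Kcnk9 had 0 counts in each NC library and 5, 27 and 10 in the MF libraries, too few for the filter on low values.

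Dcn and Casd1, whose imprinting is known mainly from single tissues, completed the list with Th. Dcn, the matrix proteoglycan decorin, rose 20.6-fold from 0.270 ± 0.190 to 5.58 ± 2.83 FPKM (SD, n = 3), a fold close to that of Plagl1. The NC level of Dcn rests on only 40, 6 and 27 counts. Casd1, an enzyme that acetylates sialic acid, rose 2.24-fold from 5.48 ± 1.71 to 12.3 ± 1.38 FPKM. The edgeR call of Casd1 was lost without NC replicate 1, NC replicate 2, MF replicate 1 or MF replicate 3. Th, the first enzyme of dopamine synthesis, had 4, 0 and 5 counts in NC and 9, 73 and 13 in MF, so that MF replicate 2 held most of its counts.

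**Figure D3:**
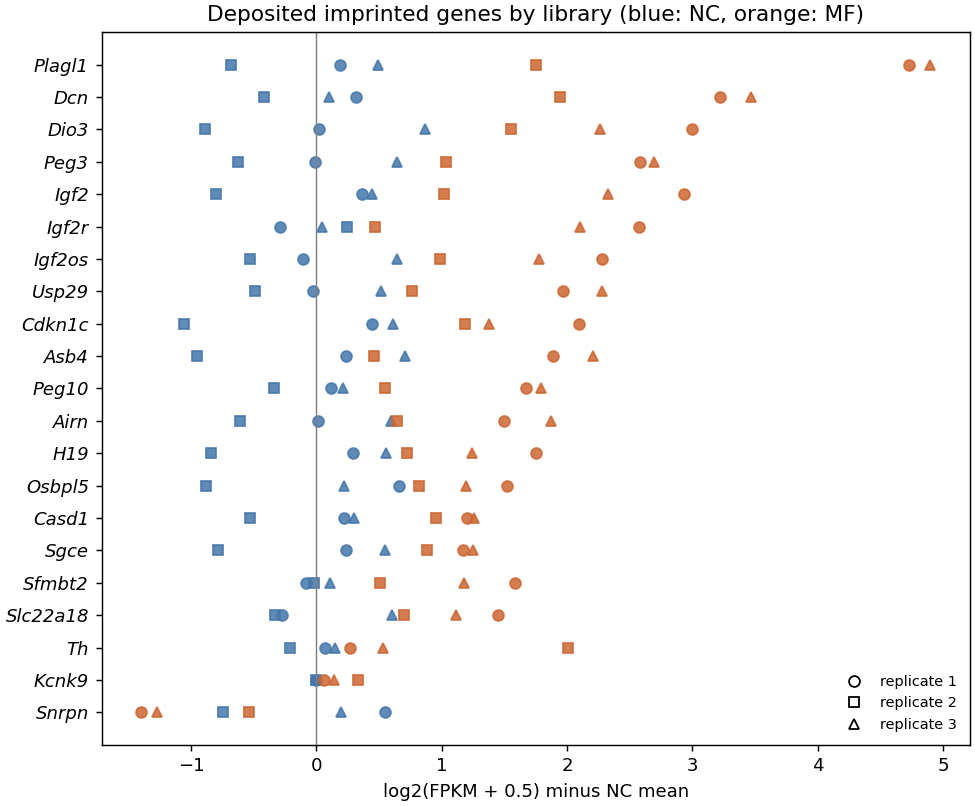
Level of each of the 21 deposited imprinted genes in each library, as log2(FPKM + 0.5) minus the NC mean (0 on the axis), with NC libraries in blue, MF libraries in orange and a marker for each replicate number. Plagl1 reaches furthest to the right, Snrpn is the single gene with its MF libraries to the left of 0, and for Th and Kcnk9 the highest library is MF replicate 2.

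Of 18 imprinted genes reported to form a network around Plagl1, 8 were deposited, and all 8 were higher in MF. Besides Plagl1 and Igf2 these were Peg3, Dcn, Igf2r, Cdkn1c, H19 and Sgce, of which 5 of 6 rose by edgeR's test, beside 62.1% of all tested genes, and H19 did not pass. With TMM scaling 1 of the 6 rose and with DESeq2 2, and all 6 stayed above 0. Without MF replicate 3 none of the 6 passed, although 4 had an unadjusted p under 0.05 in edgeR. The network had been described in other tissues, and it overlaps the imprinted gene list, so these are the same values seen through a shorter list. Of the PLAG zinc finger family, Plag1 was also deposited and rose 2.66-fold, from 0.587, 0.614 and 0.710 FPKM in NC to 1.60, 0.954 and 2.53 FPKM in MF, a call that was kept only without MF replicate 2 among the 6 fits that left out 1 library, and that was lost under TMM, median-of-ratios, DESeq2 and limma. Plagl1 stood at 6.11 ± 2.31 times the level of Plag1 in NC and at 44.2 ± 27.7 times in MF (SD, n = 3), with no overlap. This ratio was chosen after the data had been seen, from genes selected on this comparison, and is a description only. Plagl2, the remaining member, was not analysed here.

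At the Igf2 locus, H19, a noncoding RNA used from the maternal copy, lies 72.6 kb downstream on the same strand and is known to share enhancers with Igf2. H19 was the more abundant by far, at 1799, 818.3 and 2158 FPKM in NC and at 4956, 2423 and 3477 FPKM in MF. The groups did not overlap, yet the log2 fold change of 1.18 (SE 0.55) did not pass edgeR's test (adjusted p = 0.0558). With the replicate number as a block in edgeR it passed (adjusted p = 0.0131). No label gives that pairing, and the values do not settle it for numbers 1 and 3. The ratio of H19 to Igf2, from which the scaling of a library cancels, was 216.3, 238.8 and 244.9 in NC and 95.5, 181.2 and 102.6 in MF. The mean ratio was 233.3 ± 15.04 in NC and 126.4 ± 47.5 in MF (SD, n = 3), with no overlap of the groups. Both genes were selected on this comparison and the ratio was chosen after the data had been seen, so it is a description only. It also carries the uncertainty of the Igf2 level. MF replicate 2 was the closest of the MF libraries to the controls.

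Igf2os, the antisense transcript that overlaps Igf2, rose 4.03-fold from 1.37 ± 0.80 to 5.53 ± 2.53 FPKM (SD, n = 3). Its edgeR call was lost without NC replicate 1, MF replicate 1 or MF replicate 3. Its ratio to Igf2 overlapped between the groups, at 0.201 ± 0.0603 in NC and 0.181 ± 0.0377 in MF (SD, n = 3). Without strand-specific counting, reads of Igf2 and Igf2os cannot be told apart where they overlap. Of the 53 other genes within 500 kb of Igf2, 4 were deposited: Igf2os, H19, Th and the noncoding Gm45889, which had at most 7 counts in an NC library and 87, 16 and 64 counts in the MF libraries. Further imprinted genes of that end of chromosome 7 were Cdkn1c, Slc22a18 and Osbpl5, at 791.5, 806.9 and 1022 kb from Igf2.

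Sgce, the epsilon-sarcoglycan gene of muscle membranes, starts 0.099 kb from Peg10 on the opposite strand and is also used from the paternal copy. It stood at 5.27, 2.33 and 6.65 FPKM in NC and at 10.48, 8.49 and 11.1 FPKM in MF, and rose 2.11-fold (adjusted p = 0.0401, edgeR). The call was lost when MF replicate 3 (adjusted p = 0.115, edgeR), MF replicate 1 (0.0943), NC replicate 1 (0.0861) or NC replicate 2 (0.0876) was left out. The level of Peg10 was 40.7 ± 14.8 times that of Sgce in NC and 44.6 ± 13.3 times in MF (SD, n = 3), and these ratios overlapped. Casd1 and Col1a2 were the other deposited genes within 500 kb of Peg10, out of 26 annotated there. Col1a2, a chain of collagen I, rose 3.40-fold and its groups overlapped (23.5 ± 12.5 FPKM in NC, 80.1 ± 43.1 in MF, SD, n = 3), and its call in edgeR was lost without MF replicate 3 (adjusted p = 0.0959), MF replicate 1 (0.0709), NC replicate 2 (0.0682) or NC replicate 3 (0.0542). Under TMM and DESeq2 the log2 fold change of Col1a2 was 0.77 and 0.66, with adjusted p-values of 0.276 and 0.278. The imprinted Asb4 lies 622.9 kb from Peg10.

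**Figure D4:**
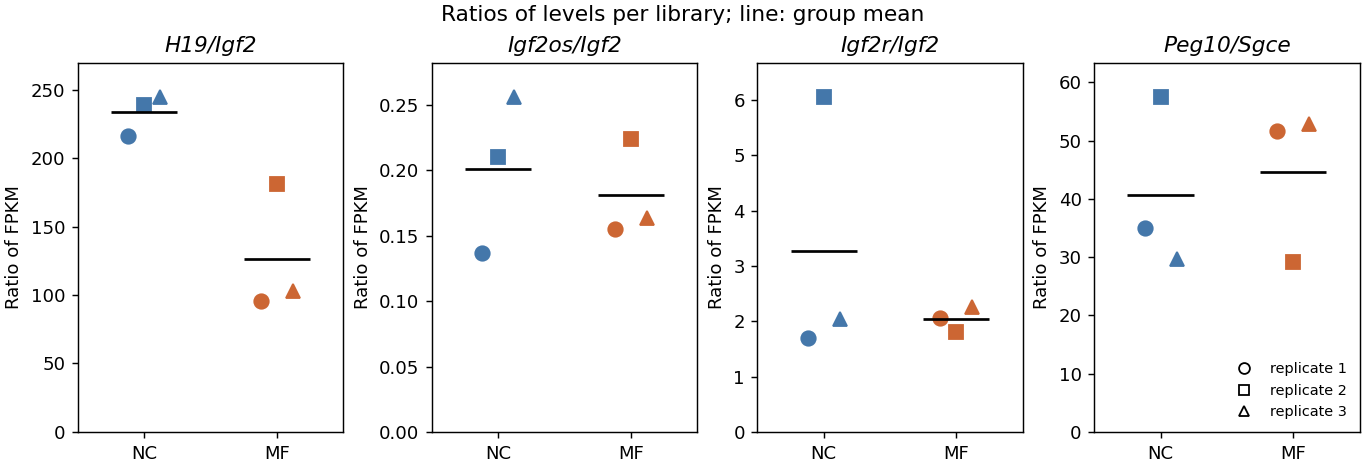
Ratio of FPKM values within each library for H19 to Igf2, Igf2os to Igf2, Igf2r to Igf2 and Peg10 to Sgce, with the group mean as a line and axes that start at 0. Only H19 to Igf2, of the 4 ratios drawn, has groups that do not overlap (216.3 to 244.9 in NC, 95.5 to 181.2 in MF), and NC replicate 2 is highest for Igf2r to Igf2 at 6.06.

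At the Plagl1 locus, Phactr2, a regulator of phosphatase and actin that lies 76.0 kb away on the opposite strand, was the single deposited gene of 16 annotated within 500 kb. It rose 3.82-fold from 0.629 ± 0.0916 to 2.41 ± 0.859 FPKM (SD, n = 3), with an edgeR adjusted p of 0.0153, of 0.0751 without MF replicate 3 and of 0.064 under TMM. Hymai, which starts inside Plagl1 on the same strand, was not analysed here, and its RefSeq span covers 2.79% of the exonic bases of Plagl1.

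Of 30 genes of the insulin-like growth factor axis, 7 were deposited, and the 6 besides Igf2 rose in MF by edgeR's test, beside 62.1% of all tested genes, which were all selected on this comparison. Without MF replicate 3 none of the 6 passed (6 had an unadjusted p under 0.05 in edgeR), and 2 passed without MF replicate 1; with TMM or DESeq2 scaling 1 passed and all 6 stayed above 0. Among the ligands, Igf1 stood far below Igf2, at 0.161, 0.0815 and 0.419 FPKM in NC and at 1.15, 0.541 and 1.51 FPKM in MF, and rose 4.82-fold. The level of Igf2 was 38.2 ± 15.6 times that of Igf1 in NC and 30.8 ± 12.5 times in MF (SD, n = 3), with overlap. The receptor Igf2r stood at 3.27 ± 2.42 times the level of Igf2 in NC and 2.04 ± 0.23 times in MF, with overlap and with NC replicate 2 alone at 6.06. Igf1r and Insr, the signalling receptors, were not analysed here. Irs1, an adaptor of the activated receptor, rose 2.80-fold from 1.33 ± 0.69 to 3.73 ± 1.55 FPKM.

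The binding proteins of the axis, which hold the growth factors outside the cell, were represented by Igfbp4 and Igfbp1. Igfbp4 rose 3.26-fold, from 36.4, 20.1 and 38.0 FPKM in NC to 129.1, 53.2 and 126.0 FPKM in MF. Igfbp1 rose 34.9-fold from 0.222 ± 0.207 to 7.95 ± 8.96 FPKM (SD, n = 3). MF replicate 3 stood at 18.3 FPKM, against 3.66 and 1.95 in the other MF libraries. The NC level of Igfbp1 rests on 1, 11 and 4 counts, so the size of its fold is uncertain. Pappa, the protease that cuts Igfbp4, rose 3.03-fold from 0.424 ± 0.280 to 1.29 ± 0.59 FPKM. For all 6 genes the NC and MF libraries did not overlap, as for 92.5% of all tested genes, and for Irs1 and Pappa the lowest MF library was only 1.007-fold and 1.005-fold above the highest NC library.

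Of 26 genes derived from retrotransposon gag sequences, the family of Peg10, 3 were deposited. Rtl5, another such gene, rose 4.33-fold from 0.227 ± 0.156 to 0.990 ± 0.369 FPKM, and MF replicate 2 was its highest library at 1.41 FPKM. Pnma5 fell 3.59-fold, from 6.26, 14.8 and 5.90 FPKM in NC to 1.09, 4.21 and 2.22 FPKM in MF, with replicate 2 the highest in each group. Without MF replicate 3 or MF replicate 1 neither call held, without NC replicate 2 neither did, and the call of Rtl5 was also lost without NC replicate 1 or MF replicate 2 and under TMM and DESeq2.

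Genes with the most similar course over the 6 libraries were found by the root mean square difference of log2(FPKM + 0.5), each gene centred on its own mean, among 954 other genes of 2 FPKM or more on average, predicted gene models left out. For Plagl1 the closest were Col3a1 (0.28 log2 units), a fibrillar collagen, Postn (0.32), a matrix protein, Lum (0.35), a collagen-binding proteoglycan, Twist1 (0.43), a mesenchymal transcription factor, and Pitx1 (0.50), a homeobox factor of the hind limb. Col3a1 stood at 6.201, 2.83 and 6.28 FPKM in NC and at 221.9, 25.4 and 199.4 FPKM in MF, with the same low replicate 2 as Plagl1 in each group. Lum (0.235, 0 and 0.520 FPKM in NC) and Pitx1 (0.433, 0.257 and 1.31) lay near the added 0.5 in NC. Their likeness to Plagl1 therefore depends on that added value. Igf2 itself differed from Plagl1 by 1.01, at rank 61 of 954, and the nearest imprinted gene to Plagl1 was Dcn at rank 17. The median over all candidates was 1.64.

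For Igf2 the closest genes were Fbn1 (0.12), a microfibril protein, Kdr (0.15), a receptor of vascular growth factor, Itm2a (0.15), a membrane protein, Masp1 (0.18), a protease of the complement system, and Wnt5a (0.21), a secreted signal. Itm2a, at a higher level than Igf2, stood at 34.6, 13.3 and 37.8 FPKM in NC and at 184.6, 51.2 and 163.5 FPKM in MF. Among imprinted genes Peg3 was nearest to Igf2 (0.28, rank 22), followed by Dio3 (0.30, rank 29), against a median of 0.76 over all candidates.

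For Peg10 the closest were Lhfpl2 (0.12), Rcn3 (0.12), a calcium-binding protein of the secretory pathway, Rgl1 (0.12), Ppic (0.13), a prolyl isomerase, and Zmiz1 (0.13), a transcriptional cofactor. Rcn3 stood at 72.95, 45.6 and 69.7 FPKM in NC and at 181.0, 90.8 and 179.4 FPKM in MF. The nearest imprinted gene was Usp29 (0.24, rank 84), and the neighbour Sgce stood at rank 343 with 0.39, against a median of 0.52. The 3 genes thus had different closest companions, given as orders of likeness over 6 libraries from selected genes, with no test. The measure keeps the size of the fold, so companions tend to share the fold of their gene. Their log2 fold changes were 3.76 to 6.48 for Plagl1, 2.18 to 2.78 for Igf2 and 1.23 to 1.46 for Peg10. Different companions therefore do not show a different course over the libraries.

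**Figure D5:**
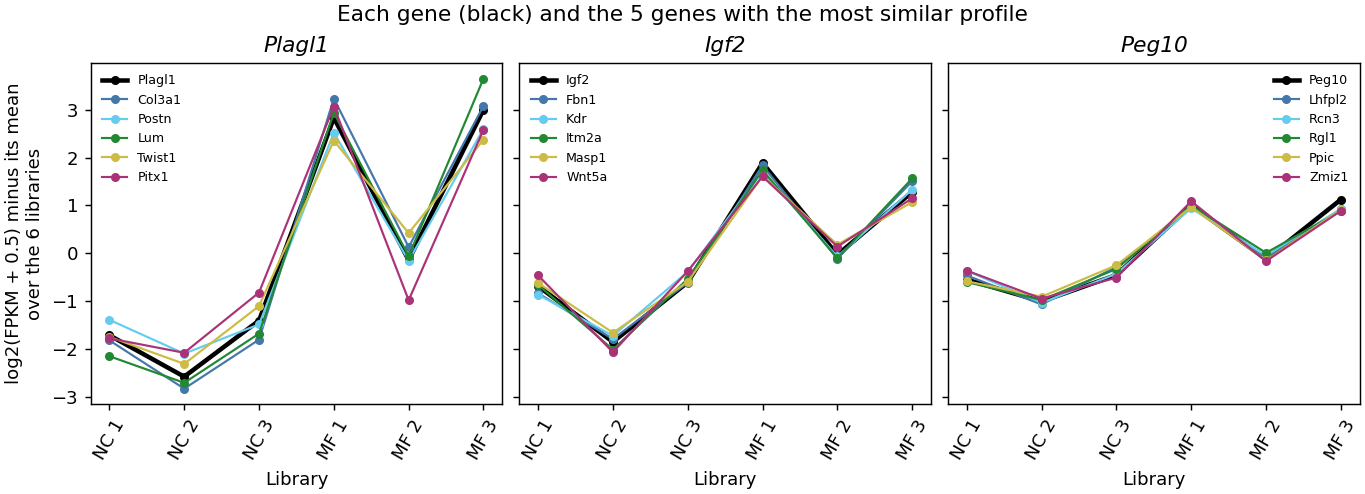
Log2(FPKM + 0.5) of each gene minus its own mean over the 6 libraries, with Plagl1, Igf2 and Peg10 in black and the 5 most similar genes of each in colour. The lines join libraries to show the shared shape only, with a dip at replicate 2 in both groups for Plagl1, Igf2 and Peg10, deepest of these 3 in MF for Plagl1.

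Markers of several cell types were among the deposited genes, all of which were selected on this comparison. Of all deposited genes 63.2% were higher in MF and the rest lower, so the marker counts below are descriptions only. Of 10 mesenchyme markers, 9 were deposited, each with a log2 fold change above 0. Their summed level was 89.1 to 245.4 FPKM in NC and 222.5 to 1149 FPKM in MF, lowest in replicate 2 of each group. These sums overlapped, since NC replicate 1 (245.4 FPKM) lay above MF replicate 2 (222.5 FPKM). Lum was at 0 in NC replicate 2. Of 15 cardiomyocyte markers, 12 were deposited and higher in MF, summing to 32.3 to 77.5 FPKM in NC and 140.1 to 659.5 FPKM in MF, and Pln was at 0 in NC replicates 1 and 2. Col1a1 stood at 116.3 ± 66.3 FPKM in NC and 396.7 ± 247.8 FPKM in MF (SD, n = 3). Its groups overlapped, with 191.8 FPKM in NC replicate 1 and 127.2 FPKM in MF replicate 2. Actc1, cardiac actin, stood at 25.4 ± 15.1 FPKM in NC and 147.3 ± 92.9 FPKM in MF (SD, n = 3). Of 14 pluripotency markers, 4 were deposited and lower in MF, summing to 273.7 to 750.4 FPKM in NC, with the top in replicate 2, and to 65.5 to 184.9 FPKM in MF, also with the top in replicate 2.

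Trophoblast cells, where Peg10 is known to be abundant, were represented by 5 of 15 markers. All 5 were higher in MF, beside 63.2% of all deposited genes. They summed to 30.9 to 62.1 FPKM in NC and 73.2 to 166.1 FPKM in MF. Most of that sum was Hand1, also a gene of the early heart, at 41.9 ± 15.8 and 112.7 ± 45.8 FPKM (SD, n = 3). Of 16 endoderm markers Gata6 was the single one deposited (2.23 ± 1.08 and 17.1 ± 13.02 FPKM), and it is shared with heart progenitors. The groups of Gata6 overlapped, as MF replicate 2 (2.19 FPKM) lay below NC replicates 2 and 3 (2.93 and 2.78 FPKM). Of 7 endothelial markers 5 were deposited, with 4 higher and Pecam1 lower in MF, and sums of 12.4 to 42.8 FPKM in NC and 21.9 to 41.3 FPKM in MF that overlapped. The 7 neural markers were not analysed here. In such bulk samples, fewer cells of a type and less RNA per cell cannot be told apart, and the part of these cell types in the levels of Plagl1, Igf2 and Peg10 was not tested.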

How the data were processed

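Poly-A RNA from 3 NC and 3 MF libraries was sequenced. The submitters' processing notes list HISAT2 2.0.5, featureCounts and mm10, and give no settings or strand use. Per the file headers, the authors deposited for each gene its raw count, its FPKM, a normalized signal, a gene length and, from their own test, a log2 fold change with p-value and adjusted p. The count divided by the deposited signal, and the count divided by FPKM and gene length, were constant within a library and proportional to each other. The FPKM values therefore carry the authors' size factors, and the effective library totals of 14929232 to 19176383 are scaled totals, while each library's own total is not given. Intervals or floors from them would cover counting error only. The deposited genes hold 847425 to 1985809 counts per library. The 48 rows with no gene name, which stayed out of the tests, and the 332 named genes below a mean of 0.5 FPKM left 1651 tested genes; 4 names turned into dates were restored by ID. Of 1982 IDs found in GENCODE M21, 1961 had the same coordinates.

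EdgeR 4.0.16 (R 4.3.3) fitted the deposited counts with these totals, with group alone in the model, two-sided, and Benjamini-Hochberg adjusted p-values under 0.05 over the tested genes as calls. The standard error is the log2 fold change divided by the root of the F statistic. The adjustment covers deposited genes only, not all genes the authors tested. The pipeline was tested on simulated counts with less spread between libraries than these data and with most genes unchanged. That run checks the code and does not show how reliable the calls are here. Alternatives used DESeq2 1.42.0, limma 3.58.1 on log2(FPKM + 1), TMM, other filters and pseudocounts, the replicate number as a block, and fits without each library in turn. Leaving out both replicate 2 libraries was added after the data had been seen.

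The replicate numbers are shared between the groups. Libraries with the same number deviated from their groups together over 1651 genes (correlations of 0.397, 0.541 and 0.348 for numbers 1, 2 and 3). For the block the numbers were taken as pairs, with no label for it. NC replicate 3 and MF replicate 1 correlated at 0.547, above the values for numbers 1 and 3. The values therefore do not settle which libraries of numbers 1 and 3 belong together, and the block served as an alternative only. No pair of libraries of a group agreed within sampling noise (chi-square statistics were 24.2 to 193 times their degrees of freedom). No label says that the cultures were separate beyond the term biological triplicates, so p-values measure the spread between these samples. The genes and lists were chosen with earlier results of these data known. Named genes are the 3 genes, all deposited genes of 5 lists (imprinted, Plagl1 network, growth factor axis, PLAG, gag-derived) or within 500 kb, the 5 most similar profiles of each without predicted genes or pseudogenes, and up to 3 markers per cell type by level. Parental copies were assigned from general knowledge after the data had been seen, and the ratios between genes were chosen then.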

Additional observations from a re-analysis of the deposited data

How the results depend on the processing

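Plagl1, Igf2 and Peg10 were higher in MF under every alternative run for them, which were other scalings, ratios of means or medians, the replicate block and each library left out. Without 1 library the log2 fold change lay between 3.98 and 4.90 for Plagl1, 1.79 and 2.65 for Igf2, and 1.2001 and 1.72 for Peg10; with the replicate block it was 3.995, 2.18 and 1.34. Scaling by the deposited genes themselves, most of which are higher in MF, shifts the median gene by -0.98 (TMM) or -1.05 (median-of-ratios) and gives 3.38 and 3.24 for Plagl1, 1.28 and 1.17 for Igf2 and 0.41 and 0.30 for Peg10. Subtracting that median shift gives 4.36 and 4.28 for Plagl1, 2.27 and 2.22 for Igf2 and 1.39 and 1.35 for Peg10. These lie near the main values by construction, since rescaling moves all genes by a similar amount, so they are no separate support. Under median-of-ratios the SD of log2 levels was 0.38 for Plagl1 in NC, 0.45 and 0.64 for Igf2 in NC and MF, and 0.025 and 0.33 for Peg10, and 0.099 for Peg10 in NC under TMM; the cause was not tested. Without 1 library the SDs ranged from 0.22 to 0.83 (Plagl1, NC), 0.12 to 2.22 (Plagl1, MF), 0.0561 to 0.88 (Igf2, NC), 0.43 to 1.36 (Igf2, MF), 0.0682 to 0.39 (Peg10, NC) and 0.0846 to 0.88 (Peg10, MF).

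Over all tested genes 1026 were higher and 584 lower. Without 1 library these became 12 to 996 and 0 to 582, both lowest without MF replicate 3. TMM called 180 higher and DESeq2 263, with 23.2% and 30.5% of calls higher against 63.7%. A filter at 2 FPKM, which tests 1034 genes, called 611 and 369. With adjustment for 19069 tests, the number that the deposited p-values and adjusted p-values imply, edgeR called 0 and 0 (1027 and 586 at an unadjusted p under 0.05), and of the imprinted genes 0 rose and 0 fell (17 and 1 unadjusted). Counting Plagl1, Igf2 and Peg10 themselves, which were chosen on this comparison, the imprinted genes that rose numbered 17, 2 with TMM and 6 with DESeq2, and 0 to 18 without 1 library, and without the 3 genes 14, 1 with TMM and 4 with DESeq2; 1 fell, and 0 to 1 without 1 library. With the replicate block 18 rose, H19 being the 1 call that changed in the lists.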
